A study of Mus musculus with 6 samples.

Results

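The 6 genes described here encode receptors, a chaperone, a lipid carrier and export pumps, several of which handle amyloid-beta or lipids. They are Lrp1, Lrpap1, Apoe, Abca1, Abcb1a and Scara3, chosen by name among the 4233 genes of the deposited table, and all 6 were listed with reads in every library. LRP1 is a large endocytic receptor that takes up apolipoprotein E, protease complexes and amyloid-beta, and the protein made from Lrpap1 keeps it from binding ligands too early on its way to the cell surface. ABCA1 loads cholesterol and phospholipid onto apolipoproteins such as APOE, and in many cells sterol-sensing LXR receptors raise the expression of both. P-glycoprotein, made from Abcb1a, is an export pump best known at the blood-brain barrier, where amyloid-beta is among the substrates proposed for it.

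RNA was sequenced from lymphatic endothelial cells of the meninges, the vessels that drain fluid and immune cells from around the brain. The cells were sorted as live single events without CD45 and with CD31 and podoplanin, from male C57BL/6J mice aged 6 months. There were 3 libraries from non-transgenic mice (WT) and 3 from 5xFAD hemizygous mice, each from a pool of 10 mice, so the spread between libraries does not show the spread between single mice. The 5xFAD strain carries human transgenes with familial Alzheimer disease mutations under the Thy1 promoter, which is active mainly in neurons, so the sorted endothelial cells are not where the transgenes are chiefly expressed. The question is which genes these cells express at another level in 5xFAD than in WT mice.

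Values are normalized counts, which are reads divided by 1 factor per library. The recovered reads of the listed genes summed to between 7960827 and 13255050 per library; genes outside the table are not in these sums. Across 4152 genes with a mean of at least 10, limma called 264, or 6.36% (78 or 1.88% higher and 186 or 4.48% lower in 5xFAD; Benjamini-Hochberg adjusted p under 0.05, two-sided). Within either genotype the SD of log2 reads stayed below 2 for every gene of the table (highest 1.99961 in both), so genes with a wider replicate spread are not in the table. All 11 lymphatic endothelial markers were listed, Prox1, Lyve1, Pdpn, Pecam1 and Flt4 among them, and their summed level was 262675 to 309570.2 in WT and 248156 to 377841 in 5xFAD. None of the 11 passed the test (limma). At an unadjusted p under 0.05 there was 1 by limma and by edgeR, against 16.3% and 16.7% of all genes tested. It was Nrp2, a co-receptor for VEGF-C (log2 fold change 0.99, 95% interval 0.22 to 1.77, limma adjusted p = 0.119). DESeq2 also called 0 of the 11, with 0 at an unadjusted p under 0.05, against 20.3% of all genes tested.

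None of the 6 genes passed the test, against 6.36% of all genes tested. The limma adjusted p ran from 0.468 to 0.945 and 0 of the 6 had an unadjusted p under 0.05, as 16.3% of all genes tested did. With edgeR on recovered reads 0 of the 6 were called (6.05% of all genes tested), and with DESeq2 also 0 (10.3%). By each of these tools 1 of the 6, Scara3, had an unadjusted p under 0.05, against 16.7% of all genes tested for edgeR and 20.3% for DESeq2. Mean log2 values were lower in 5xFAD for 5 genes (Lrp1, Apoe, Abca1, Abcb1a and Scara3) and higher for Lrpap1, where 50.7% of all genes tested had a log2 fold change below 0. The median over the 6 was -0.74, and over all genes tested it was -0.02. The 6 genes were chosen with earlier results of these data known, so their directions and median are no test of the set. The values of the groups overlapped for each of the 6, while 18.1% of all genes tested had no overlap.

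**Figure D1:**
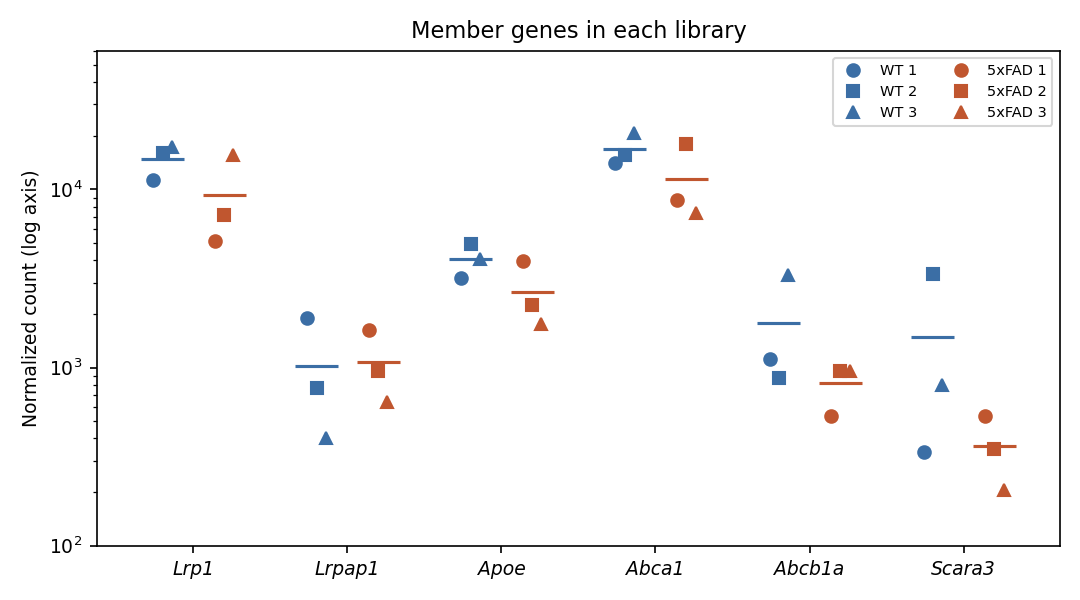
Normalized count (log axis) of each gene in each of the 3 WT (blue) and 3 5xFAD (orange) libraries; the marker shape gives the replicate number, and the short lines are arithmetic means. The WT and 5xFAD values overlap in every gene.

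Lrp1, the endocytic receptor, was at 11299.8, 15934 and 17316 normalized counts in WT 1, 2 and 3. In the 5xFAD libraries it was at 5156, 7168 and 15635. The first and the second 5xFAD libraries lay below every WT library, while 5xFAD 3 lay among the WT values. The WT mean was 14850.1 ± 3151 and the 5xFAD mean 9320.0 ± 5561 (SD over 3 libraries), a log2 fold change of -0.81 (SE 0.52, 95% interval -1.82 to 0.20; limma adjusted p = 0.468). The interval allows anything from 0.282 times to 1.15 times the WT level. An exact permutation test over the libraries gave p = 0.2, where 3 against 3 cannot go under 0.1. Within WT the highest library was 1.53 times the lowest, and within 5xFAD it was 3.03 times. Without 5xFAD 1 the log2 fold change was -0.46, and without 5xFAD 3 it was -1.26.

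Lrp1 lies on chromosome 10, from 127538161 to 127621148 on the minus strand of GRCm38. An antisense gene, Gm16217, overlaps it. The overlap is of whole gene spans, and overlap of exons was not examined. The sources used here give no strand information, so reads from any exon stretch that both genes share could not be told apart.

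Lrpap1, the chaperone of the LDL receptor family in the secretory pathway, was at 1888, 764 and 404 in WT. It was at 1629, 954 and 637 in 5xFAD, so that all 5xFAD values fell between the lowest and the highest WT library. The means were 1019 ± 774 and 1073 ± 507 (SD, n = 3 each). The log2 fold change was 0.25 (95% interval -1.61 to 2.12; limma adjusted p = 0.945). Its sign turned with single libraries, to -0.27 without WT 3 and -0.10 without 5xFAD 1, and it was 0.84 without WT 1. The gene spans 35091501 to 35105766 on chromosome 5.

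The receptor and its chaperone lay on opposite sides of their own means in 5 of 6 libraries. In 5xFAD 2 Lrpap1 was only 0.06 above its mean on the log2 scale, and the count was not compared with that of other gene pairs. WT 3 held the most Lrp1 and the least Lrpap1 of all 6 libraries. The log2 ratio of Lrp1 to Lrpap1, which does not depend on how libraries are scaled, was 2.58, 4.38 and 5.42 in WT. In 5xFAD it was 1.66, 2.91 and 4.62. The means were 4.13 ± 1.44 and 3.06 ± 1.48 (SD, n = 3), a difference of -1.06 (exact permutation p = 0.5, two-sided), and the groups overlapped. That difference ranged from -1.84 (without 5xFAD 3 or WT 1) to -0.36 (without 5xFAD 1), as single libraries were left out.

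**Figure D2:**
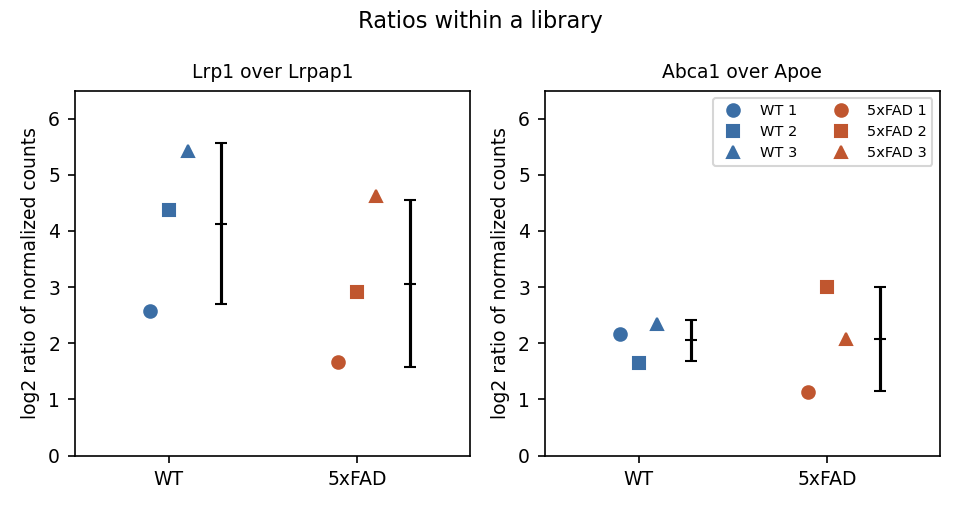
Within-library log2 ratio of Lrp1 over Lrpap1 (left) and of Abca1 over Apoe (right) in the WT (blue) and 5xFAD (orange) libraries; black bars give the mean and SD of each genotype (n = 3). The Lrp1 ratio spans 1.66 to 5.42 over all libraries, and the genotypes overlap in both panels.

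Apoe, the secreted lipid carrier that LRP1 takes up, was at 3163, 4953 and 4043 in WT. It was at 3969, 2245 and 1753 in 5xFAD. The second and the third 5xFAD libraries were below all WT libraries, and 5xFAD 1 was level with the middle of WT. The means were 4053 ± 895 and 2656 ± 1164 (SD, n = 3), a log2 fold change of -0.67 (SE 0.75, 95% interval -2.15 to 0.81; limma adjusted p = 0.760). The replicate SD of Apoe was 0.48 on the log2 scale, below the 0.92 that the fit takes as typical of genes at that level. The exact permutation test, which uses only the values of Apoe, gave p = 0.2. The log2 fold change was -1.01 without 5xFAD 1 and -0.42 without 5xFAD 3. Apoe spans 19696109 to 19699188 on chromosome 7.

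Abca1, the pump that hands lipid to APOE, was at 14128, 15529.8 and 20639.6 in WT. It was at 8759, 18093 and 7406 in 5xFAD. WT libraries were close together (SD 0.28 on the log2 scale), while 5xFAD 2 stood inside the WT range and the other two 5xFAD libraries stood below it. The means were 16766 ± 3427 and 11419 ± 5819 (SD, n = 3), a log2 fold change of -0.65 (SE 0.48, 95% interval -1.60 to 0.30; limma adjusted p = 0.576). The exact permutation p was 0.3. Leaving out 5xFAD 2 moved the log2 fold change to -1.04, and leaving out 5xFAD 3 moved it to -0.39.

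The 250 bases before the start of Abca1 are shown because this promoter is the textbook site through which sterols act on lipid export, and those of Lrp1 and Apoe are shown beside it as the receptor and the ligand of the same lipid route. The sequences are from RefSeq (GRCm38.p6), read 5′ to 3′ on the minus strand, and capitals mark the motifs searched on both strands. These were the E-box CACGTG, the GC box GGGCGG, the TATA sequence TATAAA and the ideal LXR repeat (AGGTCA and AGGTCA with 4 bases between). A variant LXR repeat (GGTTA and GGTCA with 5 bases between) was searched too, and the ideal repeat does not match it.
Abca1, chr4:53159896-53160145: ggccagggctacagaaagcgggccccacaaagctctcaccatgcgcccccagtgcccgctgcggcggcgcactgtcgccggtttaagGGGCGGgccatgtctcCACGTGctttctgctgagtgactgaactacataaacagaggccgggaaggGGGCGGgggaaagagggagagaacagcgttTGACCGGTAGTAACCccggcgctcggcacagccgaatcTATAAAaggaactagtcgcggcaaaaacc
Lrp1, chr10:127621149-127621398: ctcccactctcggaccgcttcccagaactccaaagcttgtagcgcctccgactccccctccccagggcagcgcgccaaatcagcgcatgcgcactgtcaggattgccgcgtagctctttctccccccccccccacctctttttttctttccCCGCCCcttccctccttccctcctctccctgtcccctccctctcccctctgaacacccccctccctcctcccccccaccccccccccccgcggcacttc
Apoe, chr7:19699189-19699438: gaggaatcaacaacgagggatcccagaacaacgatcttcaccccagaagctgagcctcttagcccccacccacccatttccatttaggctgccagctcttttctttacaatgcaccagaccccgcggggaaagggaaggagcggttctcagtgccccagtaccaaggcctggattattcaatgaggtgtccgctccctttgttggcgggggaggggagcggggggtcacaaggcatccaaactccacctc

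In the Abca1 window the variant LXR repeat (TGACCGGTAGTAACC on the strand shown) begins 67 bases before the start. The E-box begins 147 bases before it and the TATA sequence 29 bases before it, and there were 2 GC boxes. The ideal repeat is in 5 of 32851 such windows (0.0152%) and the variant in 15 (0.0457%). The E-box is in 6.02%, the GC box in 32.7% and TATAAA in 12.4%. Why this variant was searched is not recorded here, so its rarity is no test of the Abca1 match. The Lrp1 window held 1 GC box and none of the other motifs, and the Apoe window shown, which precedes the start of the annotated gene, held none of the 5. The table has 3 Apoe windows for different starts, and 1 of those not shown held 2 TATAAA matches. A match is a description of the sequence only. Of the 6 genes 5 had a window in this table.

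Abca1 and Apoe did not follow each other across the 5xFAD libraries. The log2 ratio of Abca1 to Apoe was 2.16, 1.65 and 2.35 in WT, and 1.14, 3.01 and 2.08 in 5xFAD. The means were 2.05 ± 0.36 and 2.08 ± 0.93 (SD, n = 3), a difference of 0.02 (exact permutation p = 1). With single libraries left out the difference ran from -0.44 to 0.49, so its sign is not set by these data. Both ends of the 5xFAD ratios lay outside the WT range.

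Abcb1a, the P-glycoprotein pump, was at 1123, 873 and 3306 in WT, and at 537, 960.4 and 953 in 5xFAD. WT 3 was well above every other library and the remaining ones lay close together, with 5xFAD 1 lowest. The means were 1767 ± 1338 and 817 ± 242 (SD, n = 3). The log2 fold change was -0.91 (95% interval -2.73 to 0.92; limma adjusted p = 0.728). Without WT 3 it was -0.33, and without WT 2 it was -1.29. The gene spans 8660077 to 8748575 on chromosome 5, where 2 short annotated loci, Gm42684 and Gm42686, overlap it. Abcb1b is a close copy of Abcb1a and was not analysed here, so reads that the copies share make the level of Abcb1a uncertain.

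Scara3, a member of the class A scavenger receptor family known for protecting cells from reactive oxygen, was at 335, 3339 and 793 in WT. It was at 535, 348 and 204 in 5xFAD. WT 2 was far above the other libraries, and WT 1 lay below 5xFAD 1 and 5xFAD 2. The means were 1489 ± 1618 and 362 ± 166 (SD, n = 3), a log2 fold change of -1.51 (SE 1.00, 95% interval -3.47 to 0.44; limma adjusted p = 0.488). This was the largest difference of the 6 and the one that moved most, in log2 units, with a single library, being -0.62 without WT 2 and -2.27 without WT 1. Its replicate SD in WT was 1.59 on the log2 scale of reads, below the limit of 2 that the table keeps to. The lowest library held 154 reads of Scara3, and the gene spans 65919394 to 65953935 on chromosome 14.

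**Figure D3:**
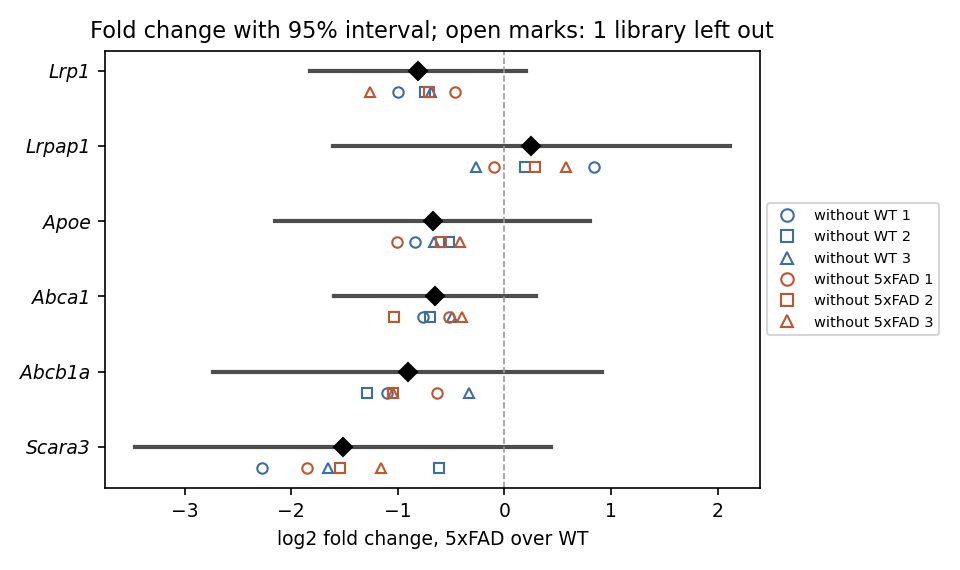
Log2 fold change of 5xFAD over WT with its 95% interval (black diamonds and bars, limma), and below each the values with 1 library left out (open marks, coloured by the genotype left out). All 6 intervals include 0, and Lrpap1 alone has marks on both sides of it.

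Set per kilobase of the longest annotated coding transcript, the mean over the 6 libraries put Apoe first with 2382 normalized counts per kilobase. Abca1 followed with 1373, Lrp1 with 812, Lrpap1 with 351, Abcb1a with 259 and Scara3 with 257. In WT the first 4 were apart, with Apoe at 2247 to 3517, Abca1 at 1377 to 2011, Lrp1 at 759 to 1163 and Lrpap1 at 136 to 633 per kilobase. In 5xFAD these neighbours overlapped, with Apoe at 1245 to 2819, Abca1 at 722 to 1763, Lrp1 at 346 to 1050.2 and Lrpap1 at 214 to 546. Lrpap1, Abcb1a and Scara3 did not differ beyond their spread in WT. In 5xFAD Lrpap1 lay above every value of Abcb1a (107.6 to 192.2) and Scara3 (56.8 to 148.7), and the latter genes overlapped. RNA amplification can favour part of a transcript, so the order per kilobase is approximate.

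No library was low or high in all 6 genes. Against the mean of each gene on the log2 scale, 5xFAD 3 was below for 5 of 6 genes and above for Lrp1 (0.50). The library 5xFAD 1 was lowest for Lrp1 (-1.10) and Abcb1a (-1.01) but above the mean for Lrpap1 (0.84) and Apoe (0.33). WT 3 was highest for Lrp1, Abca1 and Abcb1a and lowest for Lrpap1. The mean over the 6 genes was 0.08, 0.57 and 0.43 in the WT libraries and -0.27, -0.25 and -0.56 in the 5xFAD libraries. These means were not compared with those of other gene sets, and the 6 genes are not replicates of a genotype. The mean of WT 2 includes Scara3 at 2.55, and for each gene alone the genotypes overlapped.

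**Figure D4:**
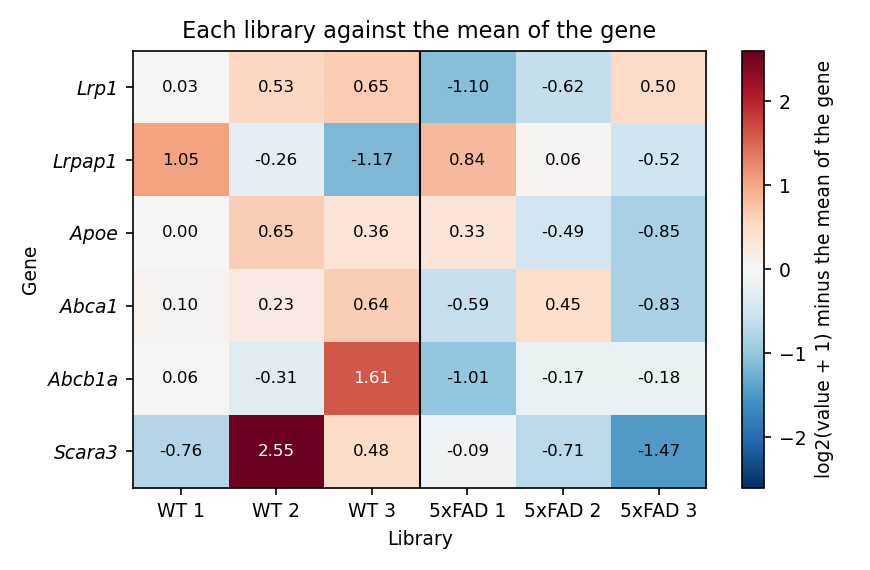
Each cell gives log2(value + 1) of a gene in a library minus the mean of that gene over the 6 libraries (red above, blue below); the line separates WT from 5xFAD. The highest value of each gene is in a WT library, and the strongest single values are Scara3 in WT 2 (2.55) and Abcb1a in WT 3 (1.61). Of all genes tested, 13.5% were highest in WT 1, 15.1% in WT 2 and 19.5% in WT 3.

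Markers of other cells that make these proteins were compared beside them. Fibroblasts and mural cells express Lrp1, and 6 of 11 fibroblast markers were listed, with a summed level of 33740.1 to 70832 in WT and 36204 to 40331 in 5xFAD. For 2 of 8 mural markers (Pdgfrb and Kcnj8) the sums were 1524 to 5708 and 721 to 2339. In both lists the highest sum was in WT 3, the library with the most Lrp1, Abca1 and Abcb1a, though not every marker was highest there. WT 3 was highest for 4 of the 6 fibroblast markers, while Col1a1 was highest in WT 1 and Dcn in 5xFAD 3. The mural sum in WT 3 was mostly Kcnj8 (5206), and Pdgfrb was highest in WT 2 (830.4) and at 502 in WT 3. Without WT 3 the log2 fold changes were -0.69 for Lrp1, -0.49 for Abca1 and -0.33 for Abcb1a.

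Blood endothelial cells of the brain are rich in Abcb1a. Of 11 blood endothelial markers 7 were listed, with sums of 16584 to 30398 in WT and 21981 to 30093 in 5xFAD. The highest sum was in WT 2, and WT 3, where Abcb1a was highest, was highest for 2 of the 7 (Cldn5 and Slco1a4). WT 2 was highest for 4 of them and 5xFAD 3 for Flt1. The log2 fold change was above 0 for 4 of the 7, with a median of 0.17. It was below 0 for Cldn5 (-1.01), Slco1a4 (-1.21) and Cxcl12 (-0.29), as for Abcb1a (-0.91). Macrophages and glia make much Apoe. Only 2 of 14 macrophage and leukocyte markers were listed (Mrc1 and Cx3cr1), with sums of 8429 to 11862 and 8187 to 11371. Slc1a3, a glutamate transporter of glia, was at 160.3, 834 and 109.7 in WT and at 583, 1356 and 1873 in 5xFAD (limma adjusted p = 0.210). None of the 3 tools called Slc1a3. It had an unadjusted p under 0.05 by limma and by DESeq2, as 16.3% and 20.3% of all genes tested did, but not by edgeR. Mrc1, the mannose receptor, is also made by lymphatic endothelium. No listed marker of the fibroblast, mural, blood endothelial or macrophage and leukocyte lists was called by limma, edgeR or DESeq2, and 0 had an unadjusted p under 0.05 by any of the 3 tools. Markers outside the listed genes were not analysed here, the part of other cells in these results was not tested, and fewer cells of a type cannot be told apart from less RNA per cell.

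The wider pathways of these genes were described from lists of known members. The 6 lists hold 133 symbols, of which 37 were tested, 31 of them besides the genes above. By limma 0 of the 37 were called, against 6.36% of all genes tested. The groups did not overlap for 3 of them (8.11%, against 18.1% of all genes tested), namely Mylip, Abca9 and Idi1.

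In the list of the LDL receptor family and its partners 10 of 24 symbols were tested, with a median log2 fold change of -0.08 and 4 of the 10 above 0. By limma 0 passed, and 1 had an unadjusted p under 0.05, Mylip (16.3% of all genes tested did). DESeq2, which called 10.3% of all genes tested, called Mylip, and edgeR did not. MYLIP marks LDL receptors for destruction and is itself switched on by LXR. Mylip was at 170, 320 and 238 in WT and at 3548, 452 and 781 in 5xFAD, so every 5xFAD library was above every WT library. Its log2 fold change was 2.19 (95% interval 0.22 to 4.17; limma adjusted p = 0.218, DESeq2 adjusted p = 0.0161, edgeR adjusted p = 0.109). Lrp10, a receptor of the family, had a log2 fold change of 1.05 (limma adjusted p = 0.673).

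Sterol efflux and LXR targets had 6 of 22 symbols tested. Besides Mylip they had log2 fold changes below 0 (5 of 6, with Abca1 and Apoe among them), and the median was -0.69. Of all genes tested 50.7% were below 0, with a median of -0.02. Abca1 and Apoe were chosen by name, so the list median is not separate from theirs. Npc1, which moves cholesterol out of lysosomes, was at 814, 959.6 and 4157 in WT and at 263, 1324 and 426 in 5xFAD, a log2 fold change of -1.48 (limma adjusted p = 0.476). As for Abca1, its highest value was in WT 3. In this list too, 0 passed by limma or edgeR, and Mylip alone by DESeq2. At an unadjusted p under 0.05 there was 1 by limma, 2 by edgeR (Apod and Mylip) and 1 by DESeq2. The shares of all genes tested were 16.3%, 16.7% and 20.3%.

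Of the amyloid-beta receptors and transport genes 12 of 32 were tested. Log2 fold changes were below 0 for 8 of them (median -0.51), against 50.7% of all genes tested. Members chosen by name make up 5 of these 12, so the median is not separate from theirs. Scara3 was the lowest and Colec12, another class A scavenger receptor, the highest at 1.23 (353, 544 and 2183 in WT against 2516, 3851 and 567 in 5xFAD; limma adjusted p = 0.576). In the scavenger receptor list 7 of 19 were tested, with a median of 0.39 and 4 of 7 above 0, and Scara3 was the lowest of the 7. Limma, edgeR and DESeq2 called 0 in both lists. At an unadjusted p under 0.05 limma had 0 and the other tools 1 in each, Scara3. Of all genes tested the share was 16.7% for edgeR and 20.3% for DESeq2.

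Among ABC transporters 13 of 44 were tested and 9 of the 13 had log2 fold changes below 0, against 50.7% of all genes tested. The median was -0.74 beside -0.02 over all genes tested. Abca1 and Abcb1a are in this list, so its median is not separate from theirs. Abca4, a retinoid transporter best known in photoreceptors, was at 261, 412 and 49.5 in WT and at 10.8, 55.9 and 27.9 in 5xFAD, a log2 fold change of -2.71 (SE 1.07; limma adjusted p = 0.118, edgeR adjusted p = 0.0809). DESeq2 called it (DESeq2 adjusted p = 0.0163, with 10.3% of all genes tested called). Abca9, a lipid transporter related to ABCA1, was at 3626, 4990 and 4220.5 in WT and at 3281, 737 and 1181 in 5xFAD, without overlap (log2 fold change -1.58; limma adjusted p = 0.301). Of all genes tested 18.1% had no overlap. Abca4 and Abca9 were the 2 of 13 with an unadjusted p under 0.05 by limma, against 16.3% of all genes tested. By edgeR and DESeq2 it was Abca4 alone, against 16.7% and 20.3%.

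Sterol synthesis and its control had 4 of 19 tested. Limma, edgeR and DESeq2 called 0, with 0 at an unadjusted p under 0.05. Idi1, an enzyme of the mevalonate pathway, had a log2 fold change of -1.61 at a low level (26.5 ± 22.8 and 6.43 ± 2.19; limma adjusted p = 0.482). Lss, the enzyme that closes the sterol rings, had one of -1.33 (limma adjusted p = 0.596).

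**Figure D5:**
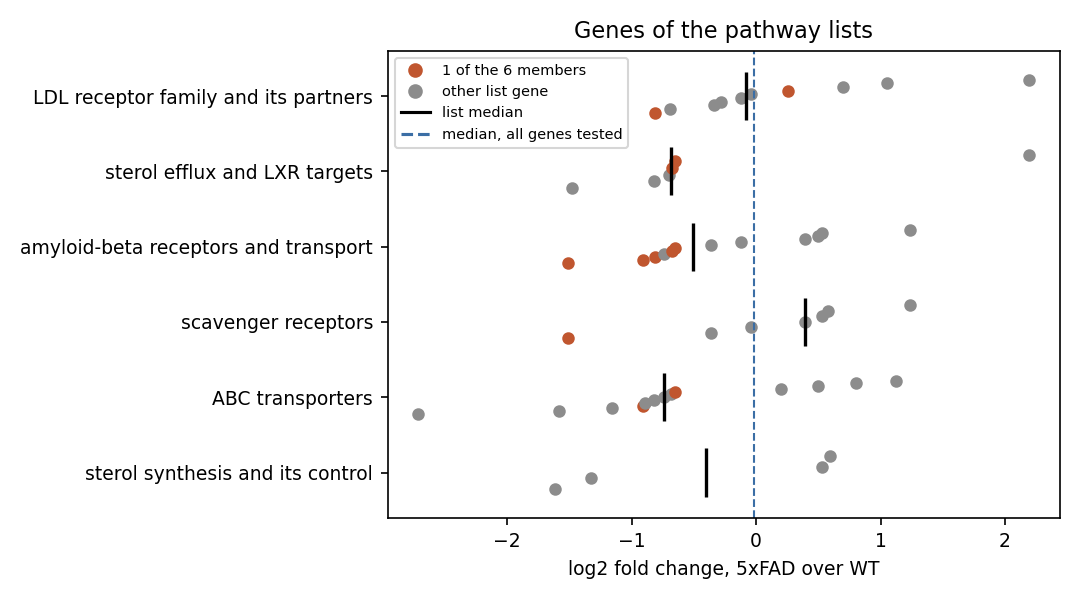
Log2 fold change of each tested gene of the 6 pathway lists (orange, the 6 genes described here; grey, other genes), with the median of each list (black line) and of all genes tested (dashed line, -0.02). A gene can stand in more than 1 list, and the point at 2.19 in the first and the second list is Mylip.

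The genes whose profile over the 6 libraries was nearest to each of the 6 were ranked by the root mean square difference of log2 values centred on their own means. For Lrp1 they were Tspan33 (0.15), Mllt6 (0.15) and Lifr (0.19). For Apoe they were Nktr (0.13), Tek, an endothelial receptor for angiopoietins (0.22), and Gtf2a1 (0.23). Abca1 was nearest to Fyco1 (0.18), Lrtm1 (0.19) and Mrpl45 (0.22), Abcb1a to Nipal3 (0.21), Shld1 (0.27) and Vps54 (0.29), and Lrpap1 to Uggt2 (0.23), Ttc14 (0.23) and F11r (0.25). For Scara3 they were farther off, namely Cux2 (0.43), Fance (0.44) and Kmo (0.45). This measure grows with the spread of a gene, and Scara3 had the widest replicate SD of the 6 (1.28 on the log2 scale). Among the 6 genes themselves the nearest pair was Apoe and Abca1 (0.58) and the farthest was Lrpap1 and Scara3 (1.65). Apoe and Abca1 had the smallest replicate SDs of the 6 (0.48 and 0.52), so their nearness does not show that they varied together. The points share libraries and scaling factors, and 6 libraries are few for ranking 4152 profiles.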

How the data were processed

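The deposited signal is a normalized count: within a library, all values share 1 dividing factor. Per the submitters' processing notes the tools were FastQC, Trimmomatic, Salmon and DESeq2, with build mm10 and no settings given. Dividing each column by its smallest value above 0 gave whole reads throughout (100%, within 1e-06). RNA was extracted with PicoPure and amplified linearly, per the labels' protocols.

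Genes with a mean of at least 10 (4152 of 4233) were tested with limma 3.58.1 in R 4.3.3 on log2(value + 1), with the prior variance following mean level. Its prior degrees of freedom were infinite: each SE reflects genes of like level; folds of low genes are understated. Calls needed a Benjamini-Hochberg adjusted p under 0.05. The count tests edgeR 4.0.16 (TMM) and DESeq2 1.42.0 ran on recovered reads; the tools were tested on simulated data. Other settings were a pseudocount of 5, no filter or a mean of at least 50, a single prior variance, 3 scalings, a replicate block and each library left out.

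The 6 genes and the lists were chosen with earlier results of these data known. Named genes were the 6, list members called by limma or else the 2 with the largest absolute log2 fold change per list, the 3 nearest profiles per gene (predicted and clone names left out), and markers; Apod and Slc1a3 were chosen after their values were seen. Coordinates are from GENCODE on GRCm38, the assembly of mm10; promoter sequences are from RefSeq. 1 marker gene is not reported here.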

Additional observations from a re-analysis of the deposited data

How the results depend on the processing

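Over 16 alternatives each, Lrp1, Apoe, Abca1, Abcb1a and Scara3 kept a log2 fold change below 0 and none of them was called (lowest adjusted p 0.130, Scara3 with DESeq2). Leaving out single libraries gave -1.26 to -0.46 for Lrp1, -1.01 to -0.42 for Apoe, -1.04 to -0.39 for Abca1, -1.29 to -0.33 for Abcb1a and -2.27 to -0.62 for Scara3. Lrpap1 ran from -0.27 to 0.84 and the log2 ratio of Abca1 to Apoe from -0.44 to 0.49, so both changed sign; the cause was not tested. Counts over all genes (78 higher, 186 lower) changed to 49 and 116 when the filter asked for a mean of 50 (fewer genes tested), to 163 and 264 with DESeq2, and to 120 and 160 with quantile normalization; the cause was not tested for the last 2. With equal library totals the log2 fold change of the median gene was -0.14 in place of -0.02. With the replicate block 80 genes were higher and 190 lower, and no call among the 6 genes changed (Lrp1 adjusted p = 0.462 with limma). Deviations from the genotype means were not shared by libraries of like number (r across genes 0.00247, -0.0157 and -0.0126; for 0 of 6 was it the best match). Arms of 3 pools limit the precision, and a left-out library leaves 2 in its arm.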

Other observations

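Among the 37 pathway list genes, 13 (35.1%) had their highest value in WT 3, where 19.5% of all genes tested did. The library 5xFAD 3 was the highest for 9 (24.3%, against 22.4% of all genes tested). These counts were chosen after the values were seen, and list genes are not independent of each other.

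Stabilin and mannose receptors, which take up waste proteins in sinusoidal and lymphatic endothelium, had reads in every library. Stab1 was at 20043, 22877 and 17394 normalized counts in WT and at 37061, 13531 and 48025 in 5xFAD, with 2 of the 3 5xFAD libraries above all WT libraries and 1 below all of them. Stab2 was at 11597, 8238 and 7076 in WT and at 15695, 5919 and 16382 in 5xFAD, the same order of the 5xFAD libraries. Their log2 fold changes were 0.53 and 0.39 (limma adjusted p = 0.556 and 0.815). Mrc1 was at 8243 to 11829 in WT and 8105 to 11310.1 in 5xFAD. These genes were also chosen after their values were seen.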
